A study of Mus musculus with 10 samples.

Results

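The cells described here are the capillary and venous endothelial cells of the mouse medial prefrontal cortex, taken from single-cell RNA sequencing of 10 libraries. Molecules were counted by unique molecular identifiers (UMIs). Barcodes under 500 genes or over 15% mitochondrial UMIs were dropped, and the rest are called kept barcodes. Members were chosen by their measured counts of marker genes: a kept barcode was taken when Cldn5, Flt1, Pecam1, Cdh5, Slco1a4 and Itm2a together had at least 5 UMIs with at least 1 from Cldn5. It also had to have no UMI of the arterial genes Gkn3, Bmx and Sema3g, and at most 1 UMI over 9 marker genes of neurons, astrocytes, pericytes, smooth muscle, oligodendrocytes and microglia. By this rule 2943 of 48816 kept barcodes were members, out of 64937 deposited barcodes. They are called the endothelial barcodes below.

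The study sampled male C57BL/6N mice, an inbred laboratory strain, that were over 2 months old. Their place in a social hierarchy had been scored with the tube test, in which 1 of a pair of mice backs out of a narrow tube. The libraries were 5 of rank 1 mice, the dominant ones, and 5 of rank 4 mice, the subordinate ones, and the labels name no drug, allele or surgery in either group. Each library pooled punches from 2 or 3 mice, so a library and not a mouse or a cell is the replicate, and a mouse that differed from its pool mates cannot be seen.

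Endothelial cells line the blood vessels, and in the brain they form the blood-brain barrier: tight junctions seal the gaps between them, few vesicles cross them, and dedicated carriers pass glucose, amino acids and other nutrients while efflux pumps return many drugs to the blood. Wnt and beta-catenin signalling from the surrounding tissue is known to induce and keep this state. Along the vessel tree the cells change gradually from arterial through capillary to venous. Mfsd2a, a lipid transporter that limits vesicle crossing, is a known marker of the capillary bed, and Slc38a5, a glutamine carrier, is a known marker of its venous end.

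The rank 1 libraries held 248, 183, 132, 108 and 377 endothelial barcodes in replicates 1 to 5, and the rank 4 libraries held 235, 150, 375, 346 and 789. Their summed counts lay between 219399 and 872137 UMIs per library. The median endothelial barcode had 1203 UMIs and 807 genes, against 1713 UMIs in all other kept barcodes. Replicates 1 to 3 and replicates 4 and 5 were written by different software versions. Rank 4 replicate 1 stood apart in depth, with a median of 2365 UMIs per endothelial barcode and 10.8% mitochondrial UMIs. Its deposited barcodes began at 1037 UMIs and those of rank 1 replicate 1 at 739, against 500 or 501 in the other libraries. Depth medians therefore come from barcode sets with different lower ends. Barcodes called as doublets made up 4.25% of the endothelial barcodes. Of 45 pairs of libraries, 1 shared a barcode sequence between endothelial barcodes, and it was 1 barcode.

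Most members lay well inside the limit on the marker sum, while many stood at the limit on the other-cell sum. A marker sum of at least 10 was reached by 2305 of them (78.3%), while 116 had the lowest allowed sum of 5 and a further 89 barcodes missed membership with a sum of 4. An other-cell sum of 0 was found in 1810 and of 1, the limit, in 1133 (38.5%). Just outside stood 523 barcodes with a sum of 2. A further 534 had a sum over 2, with a doublet share of 30.7%. The 89 barcodes with a marker sum of 4 had a doublet share of 15.7%, against 6.90% in the 116 members with a sum of 5. A further 430 barcodes met every condition except that they had arterial UMIs. They serve as the arterial set, and 1493 barcodes with UMIs of the pericyte genes Kcnj8 and Vtn serve as the pericyte set. The pericyte barcodes were also limited to at most 1 UMI over the endothelial marker genes of the rule. A further limit was at most 1 UMI over its neuron, astrocyte, smooth muscle, oligodendrocyte and microglia markers.

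The markers of the label were present, and since the rule itself uses them their levels are a description. Summed counts were scaled to CPM, the count of a gene relative to all UMIs of a set in a library, a scale on which different genes are not corrected for length. Cldn5 (claudin-5, the main tight junction claudin of brain endothelium; chromosome 16, 18776847 to 18778262, GRCm38) ranged from 4422 to 7282 CPM over the 10 libraries with a median of 5259. Its mean was 198 CPM in the other kept barcodes and 31.5 CPM in the pericyte set. Flt1, a receptor for VEGF, had a UMI in 90.5% of the endothelial barcodes, Itm2a in 88.3%, Slco1a4, an organic anion carrier, in 79.3%, and Pecam1, an adhesion molecule of endothelial contacts, in 42.2%. In pericyte barcodes the same 4 genes had a UMI in 5.76%, 3.42%, 0.938% and 0.603%, at a median of 1003 UMIs. The pericyte set was itself chosen for few UMIs of Cldn5 and these 4 genes, so its low values follow from that choice.

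Genes were also ranked by their ratio of endothelial to other kept barcodes, and since the ratio picked them it is a description. A small constant was added to the mean of the other barcodes, so these ratios lie somewhat below the plain ones. The 20 highest ratios, among genes of at least 100 CPM, included, outside the rule, Slc38a5 (41.0 times), Ctla2a (36.9) and the peptidoglycan-binding Pglyrp1 (33.5). Others were the matrix gene Hmcn1 (32.6), the VEGF receptor gene Kdr (28.3) and the Wnt effector gene Lef1 (24.8). The efflux pump gene Abcb1a (23.9) and the transcription factor gene Foxq1 (23.5) were among them as well. Bsg, whose product basigin partners lactate carriers, was the second most abundant transcript, mitochondrial and ribosomal protein genes and Malat1 aside, at 11996 ± 3399.6 CPM (SD, n = 10 libraries), and the flow-responsive transcription factor gene Klf2 reached 3955 ± 1589.8 CPM. The others outside the rule were AU021092, Nostrin, Pltp, Adgrl4, Slc16a4, Proser2, Fn1 and Tbx1, at ratios from 22.9 to 28.3. The most abundant, the gene model Gm42418, which overlaps ribosomal RNA, took 275 to 944 CPM in replicates 1 to 3 and 26563 to 55866 CPM in replicates 4 and 5.

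The more abundant barrier genes that the rule did not use, named here, were present in the endothelial barcodes of every library. Others were near the floor, such as the junction genes Cgn and Cldn12, with lowest values of 0 CPM and medians of 1.14 and 7.72 CPM. Slc2a1 (the glucose carrier GLUT1) had 1144, 1839, 2052, 1134 and 897 CPM in rank 1 replicates 1 to 5 and 1226, 2021, 1824, 1209 and 905 CPM in rank 4. Replicates 2 and 3 were highest in both ranks and the ranks overlapped throughout. Slco1c1, a thyroid hormone carrier, ranged from 828 to 1433 CPM with a median of 1089.5. Abcb1a (P-glycoprotein) was steadier, from 501 to 805 CPM with a median of 607. The tight junction gene Ocln ranged more widely, from 104 to 439.8 CPM. Abcg2, a second efflux pump, had a mean of 823 ± 239 CPM, and Mfsd2a one of 285 ± 35.1 CPM (SD, n = 10 libraries each).

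At the depth of single barcodes these genes were seen in part of the cells. Slc2a1 had a UMI in 70.8% of the endothelial barcodes, Slco1c1 in 68.7%, Abcb1a in 51.4% and Ocln in 23.8%. In pericyte barcodes, which should lack them, the shares were 3.68%, 2.08%, 0.737% and 0.469%. That set was chosen for few UMIs of the endothelial marker genes. Plvap, a diaphragm protein of leaky vessels, had a UMI in 9 of 2943 endothelial barcodes (0.306%), below the 1.63% of the other kept barcodes.

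**Figure D1:**
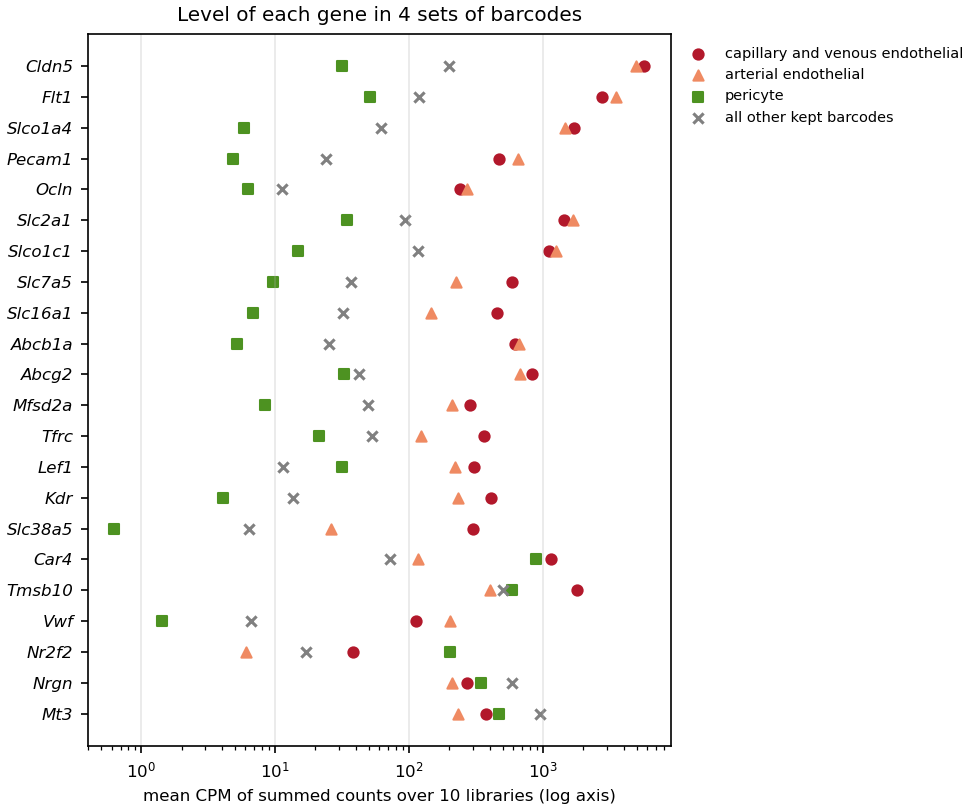
Mean CPM of each gene (log axis) over 10 libraries in the endothelial barcodes, the arterial set, the pericyte set and all other kept barcodes. Barrier genes such as Slc2a1 and Abcb1a lie close together in both endothelial sets and far above the pericyte set, Slc38a5 and Car4 are higher in the capillary and venous barcodes than in the arterial set, and the neuronal gene Nrgn lies near the same level in both endothelial sets and the pericyte set.

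Genes of other cells were present at levels that varied between libraries. The 8 genes of the neuron list that the rule did not use (among them Nrgn, Snap25, Camk2a and Syt1) summed to 437 to 2724 CPM in the rank 1 and 471 to 3991 CPM in the rank 4 endothelial barcodes, against 3456 to 8767 CPM over all libraries in the other kept barcodes, and none was at 0 in all libraries. Nrgn (neurogranin, a calmodulin-binding protein of excitatory neurons) had a UMI in 37.9% of endothelial, 37.4% of pericyte and 33.7% of arterial barcodes, close to one another and below the 55.8% of the other kept barcodes. Its share in the endothelial barcodes was thus near that of vascular sets that should lack it, at medians of 1203, 1003 and 1780 UMIs. The 7 astrocyte genes summed to 293 to 1989 CPM, the 7 pericyte genes to 21.6 to 281 CPM, the 9 microglia and macrophage genes to 192 to 1157 CPM, the 8 oligodendrocyte genes to 90.5 to 1431 CPM, the 4 smooth muscle genes to 8.66 to 34.2 CPM and the 6 fibroblast genes to 0 to 16.2 CPM.

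Haemoglobin was the exception. The 5 erythroid genes summed to 5444 to 54765 CPM in the endothelial barcodes. In the other kept barcodes they summed to 649 to 2301 CPM in replicates 2 to 5 and to 24366 and 24126 CPM in replicate 1 of the ranks. The haemoglobin UMIs sat in few endothelial barcodes: 86 of 2943 (2.92%) had at least 10% of their UMIs from haemoglobin genes, with up to 72.4% in 1 barcode, while the median barcode had 0.0434%. In replicates 2 to 5 between 1.33% and 6.4% of the endothelial barcodes passed this 10% mark, against 0.126% to 0.355% of the other kept barcodes. In replicate 1 the order was the other way round, with 0.403% and 1.70% against 2.31% and 3.42%.

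The members differed from the arterial barcodes in transport genes as well as in others. The rule separates these sets by 3 arterial genes, so the differences are given without a test. Car4, a carbonic anhydrase on the surface of capillary endothelium, had a mean of 1158 CPM in the endothelial barcodes and 117 CPM in the arterial set, Slc38a5 301 and 26.0 CPM, and the actin-binding Tmsb10 1797 and 404 CPM. Slc16a1 (the monocarboxylate carrier MCT1) had 452 and 146 CPM, and the transferrin receptor gene Tfrc 364 and 122 CPM. Each of these 5 was higher in the members in 10 of 10 libraries. In the other direction the matrix protein gene Mgp had 14.2 CPM in the members and 677 CPM in the arterial set, the lymphangiogenic growth factor gene Vegfc 7.53 and 174 CPM, and Tm4sf1 520.0 and 2070.0 CPM, each higher in the arterial set in 10 of 10 libraries. Slc2a1 (1425 and 1669.8 CPM), Slco1c1 (1114 and 1246 CPM) and Abcb1a (622 and 668 CPM) had closer means, while the taurine carrier gene Slc6a6 had 852 CPM in the members and 1613.9 CPM in the arterial set. These 4 genes were chosen after their values were seen.

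The members themselves were divided by 2 known zonation markers that the membership rule did not use. Barcodes with a UMI of Slc38a5 and none of Mfsd2a are called venous-marked (437), those with Mfsd2a and no Slc38a5 capillary-marked (669). Both genes had a UMI in 292 barcodes and neither in 1545, so the division covers a minority of the members. The marks differ in how far they separate the sets: a Slc38a5 UMI was present in 24.8% of the members, 4.42% of the arterial and 1.02% of the other kept barcodes, and a Mfsd2a UMI in 32.7%, 30.5% and 9.81%. Mfsd2a was thus nearly as frequent in the deeper arterial set as in the members. Depth was alike, with medians of 1283 UMIs in venous-marked and 1352 UMIs in capillary-marked barcodes, while barcodes with both had 2153.5 and those with neither 1056. Counts were summed per library and side and compared with edgeR's quasi-likelihood test with the library as a block and Benjamini-Hochberg adjustment. Leaving out the splitting and membership genes, 9 of 1107 tested genes passed an adjusted p of 0.05, which is 0.813% of them, 3 (0.271%) higher on the venous and 6 (0.542%) on the capillary side. An unadjusted p under 0.05 was found for 125 (11.3%), 61 (5.51%) and 64 (5.78%) in these directions.

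Higher on the venous side were Tmsb10, Pglyrp1 and Car4. Tmsb10 (chromosome 6, 72957347 to 72958748, GRCm38) had a lowest, median and highest value of 1014, 2271 and 3174 CPM in venous-marked barcodes of the 10 libraries, and of 524, 1319 and 2445 CPM in capillary-marked ones. It was higher on the venous side in 10 of 10 libraries (log2 difference 0.67 ± 0.09 SE, edgeR adjusted p 4.83e-05). Pglyrp1 was also higher in 10 of 10 libraries, with a median of 1465 against 1093 CPM (log2 difference 0.34 ± 0.07 SE, edgeR adjusted p 0.0165). Car4 was higher in 9 of 10, with a median of 1212 against 799.6 CPM (0.42 ± 0.10 SE, edgeR adjusted p 0.0431). Mean CPM of Tmsb10, Pglyrp1 and Car4 was 2273, 1525 and 1448 in venous-marked and 1435, 1180 and 1100 in capillary-marked barcodes. Barcodes with both marks had means of 2366, 1721 and 1673 CPM, and those with neither 1451, 1099 and 769 CPM. Of these 3, Tmsb10 stood on the list of venous genes, while Pglyrp1 and Car4 stood on the list of capillary genes. Without the splitting gene Mfsd2a, the capillary list thus had 11 genes tested, 2 called on the venous side and 1 (Cxcl12) on the capillary side.

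Higher on the capillary side were Cxcl12, Mbp, Tm4sf1, Tsc22d1, Apold1 and Malat1. Cxcl12, a chemokine known to be made by capillary and arterial endothelium, had a lowest, median and highest value of 674, 1700.5 and 2579 CPM in capillary-marked and of 294, 949 and 2387 CPM in venous-marked barcodes. It was higher on the capillary side in 10 of 10 libraries (log2 difference venous minus capillary -0.69 ± 0.11 SE, edgeR adjusted p 0.000816). Mean Cxcl12 was 1070 CPM in venous-marked, 1609 in capillary-marked, 897 in barcodes with both marks and 1344 in those with neither. Tm4sf1, the membrane protein gene that stood high in the arterial set, differed by -0.50 ± 0.10 SE in 9 of 10 libraries (edgeR adjusted p 0.0165). The differences were -0.37 for Tsc22d1, -0.46 for the early-response gene Apold1 and -0.28 for the nuclear RNA Malat1. Mbp encodes myelin basic protein of oligodendrocytes, and it differed by -0.92. The capillary-marked barcodes also had more barcodes called as doublets, 4.93% against 1.83%. Without barcodes called as doublets 6 genes passed, among them Mbp at -0.91 (edgeR adjusted p 0.0215), while Apold1, Car4 and Malat1 did not (edgeR adjusted p 0.0753, 0.0753 and 0.0989).

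Tmsb10 and Cxcl12 were the firmest of the 9, since each passed in 19 of 20 alternative analyses and lost its call only without the library block (edgeR adjusted p 0.998). The other 7 passed less often. Counts of 3 were left without rank 1 replicate 1, without rank 1 replicate 5 or without rank 4 replicate 5, 5 without rank 4 replicate 1, and 2 (Tmsb10 and Cxcl12) with an other-cell sum of 0. Thinning each barcode to 1000 UMIs left 3, namely Tmsb10, Cxcl12 and Pglyrp1.

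Several zonation markers were too low for the filter on low counts and were tested without it only. Vwf, the clotting factor carrier of venous and large-vessel endothelium, had a median of 149.8 CPM in venous-marked and 100.4 CPM in capillary-marked barcodes and was higher on the venous side in 9 of 10 libraries. Without the filter, edgeR gave it a log2 difference of 1.04 ± 0.22 SE (adjusted p 0.00362). The adhesion molecule genes Vcam1 and Icam1 differed by 2.07 and 1.39 on the venous side, and the Notch target gene Hey1, higher on the capillary side in 10 of 10 libraries, by -1.71 (edgeR adjusted p 6.28e-06, 0.000214 and 0.000362). Of the 24 genes called without the filter, 7 were higher on the venous and 17 on the capillary side. The vein markers Lcn2 and Lrg1 each had a UMI in 9 of 2943 endothelial barcodes, and the arterial set had 1 and 0 such barcodes of 430. These 4 genes below the filter and the vein markers were chosen after their values were seen.

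No gene of the barrier lists passed between the marked sides, beside 0.813% of all 1107 genes tested. At that share lists of this size are due few calls or none, so the absence of calls does not set them apart. Membership and splitting genes aside, 6 genes of the junction list were tested and 0 passed, of the solute carriers 15 and 0, of the efflux transporters 2 and 0, and of the transcytosis receptors 8 and 0, with median log2 differences of 0.05, 0.02, 0.12 and 0.12 beside 0.01 over all genes tested. Slc2a1 had a median of 1317 CPM in venous-marked and 1322 CPM in capillary-marked barcodes (log2 difference -0.04 ± 0.08 SE, edgeR adjusted p 0.995). For Slco1c1 these medians were 1084 and 1083 CPM (0.01 ± 0.09 SE, edgeR adjusted p 0.995).

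**Figure D2:**
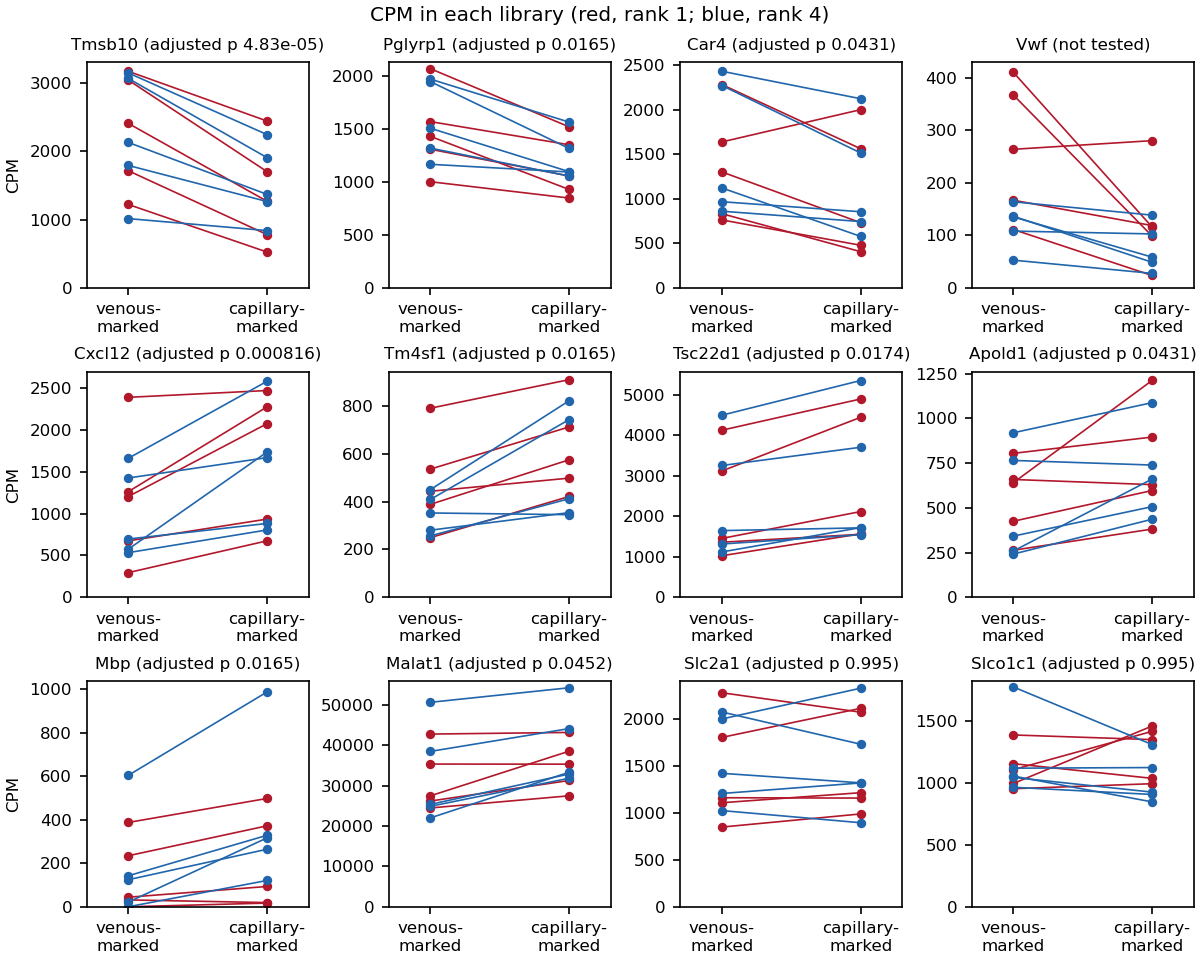
CPM in venous-marked and capillary-marked endothelial barcodes of each library, joined by a line (red, rank 1; blue, rank 4), with the edgeR adjusted p in each title. Tmsb10 and Pglyrp1 fall from left to right in all 10 libraries, Cxcl12 and Tsc22d1 rise in all 10, and Slc2a1 and Slco1c1 cross without a common direction.

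The study compared dominant with subordinate mice, and the endothelial share of kept barcodes did not differ between them. It was 5.04%, 9.30%, 9.02%, 5.34% and 4.8% in rank 1 replicates 1 to 5 and 4.78%, 8.62%, 9.98%, 5.37% and 5.74% in rank 4. The Wilson 95% intervals, which cover counting error only, spanned for example 4.47% to 5.69% in rank 1 replicate 1. Replicates 2 and 3 held the highest shares in both ranks and the ranks overlapped. The means were 6.70% ± 2.25 and 6.90% ± 2.27 (SD, n = 5 per rank), a difference of -0.197 percentage points (two-sided exact permutation test, p = 0.770; the smallest p this design allows is 0.00794). Taken by software version, replicates 1 to 3 alone gave -0.00724 percentage points and replicates 4 and 5 alone gave -0.483. With the stricter cell filter of at least 1000 genes and at most 10% mitochondrial UMIs it turned to 1.12 percentage points, higher in rank 1 in 5 of 5 pairs of same-numbered libraries (exact permutation p = 0.190; paired exact permutation p = 0.0625, the smallest possible).

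Depth per endothelial barcode did not differ between the ranks in the pooled test. The median UMIs per barcode were 1582.5, 1164, 1427, 1797 and 1319 in rank 1 and 2365, 1272, 1173, 1115.5 and 946 in rank 4 (difference of means 83.6, two-sided exact permutation p = 0.802). By software version the difference had opposite signs, -212 UMIs in replicates 1 to 3 and 527 UMIs in replicates 4 and 5. Without rank 4 replicate 1 the difference was 331 UMIs (exact permutation p = 0.0476). That library had the highest median, so leaving it out must raise the difference. Its p was the smallest of 10 runs that each left out 1 library, and no conclusion is drawn from it. Barcodes called as doublets made up 1.61% to 5.31% of the endothelial barcodes in rank 1 and 1.33% to 7.86% in rank 4.

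The venous-marked share, taken after thinning 1911 members of at least 1000 UMIs to 1000 UMIs and leaving out 1032 shallower ones, was 16.0%, 25.9%, 34.3%, 7.69% and 8.30% in rank 1 and 8.09%, 19.4%, 23%, 12.1% and 10.6% in rank 4. Replicates 2 and 3 were again the highest of both ranks. Means of 18.4% ± 11.5 and 14.6% ± 6.30 did not differ beyond the spread between libraries (SD over 5 libraries each; exact permutation test, two-sided, p = 0.556). The difference was 8.56 percentage points in replicates 1 to 3 and -3.34 in replicates 4 and 5. Unthinned, the means were 18.9% and 14.9%, higher in rank 1 in 5 of 5 pairs (exact permutation p = 0.429; paired exact permutation p = 0.0625, the smallest possible). Of the members, 0 to 449 per library fell below the thinning depth.

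**Figure D3:**
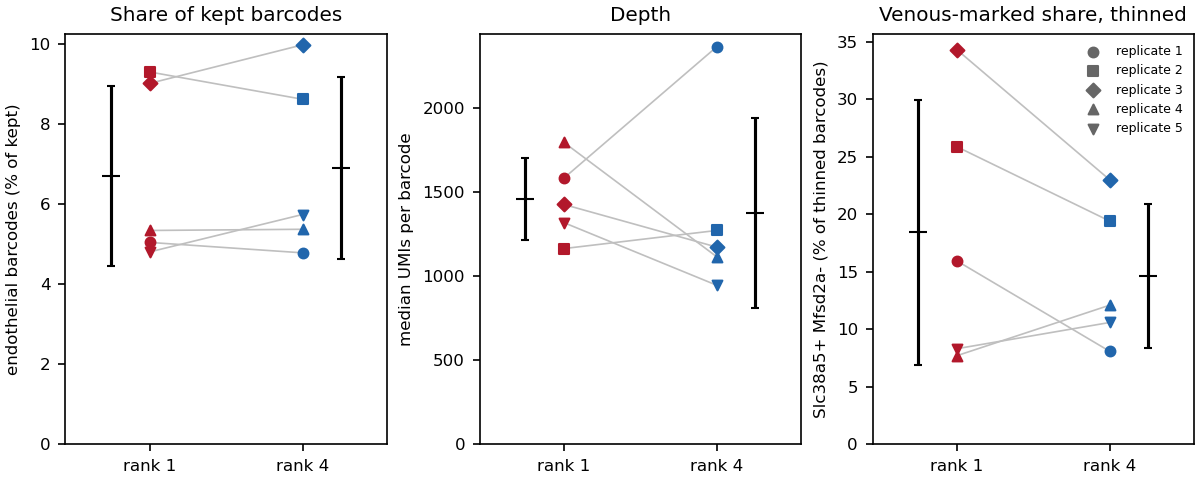
Endothelial share of kept barcodes (%), median UMIs per endothelial barcode and venous-marked share after thinning (%) in each library, with grey lines joining libraries of the same replicate number and black bars for the mean ± SD of a rank (n = 5). Ranks overlap in all 3 panels, replicates 2 and 3 hold the 2 highest values of both shares in each rank, and rank 4 replicate 1 lies alone at 2365 UMIs.

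For gene expression, counts of the endothelial barcodes were summed per library and tested over all genes with edgeR's quasi-likelihood test, with the software version as a covariate. Of 6802 genes tested, 0 passed an adjusted p of 0.05 (0% called), 144 (2.12%) had an unadjusted p under 0.05, 86 (1.26%) higher and 58 (0.853%) lower in rank 1, and DESeq2 also called 0. A count of 0 does not show that no gene differed. Among the genes of smallest p, Dap, a death-associated protein gene, had 59.4, 48.5, 73.6, 50.3 and 40.6 CPM in rank 1 and 30.5, 22.2, 27.2, 36.4 and 26.5 CPM in rank 4. Its ranks did not overlap, a pattern found upward in 0.265% and downward in 0.0588% of the genes tested. The log2 difference of Dap was 0.85 ± 0.23 SE (edgeR unadjusted p 0.00281, adjusted p 1.00). The tetraspanin gene Tspan9 (0.75), the heparan sulfate sulfotransferase gene Hs3st1 (0.99), the phosphatase gene Ptp4a3 (0.60), Ildr2 (0.78), Plrg1 (0.78), Vwf (0.87), Synpo2 (0.92), Prkaca (0.59) and Eif4e2 (0.60) made up the rest of the 10 with the smallest p on the higher side. On the lower side were the brain proteoglycan gene Bcan (-1.57), Kifc2 (-0.95), the astrocyte-rich sodium pump subunit gene Atp1b2 (-1.03), Btbd3 (-0.99), Tle4 (-0.62), Chpt1 (-0.76), Fnbp1l (-0.46), the chemokine gene Cx3cl1 (-0.65), Xpo1 (-0.71) and Pip4k2b (-0.94).

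Junction genes showed no rank difference that passed. Cldn5 had 6724, 5135, 6771, 7282 and 6291 CPM in rank 1 and 4422, 5096, 5103, 5383 and 4723 CPM in rank 4. Every pair of same-numbered libraries had the higher value in rank 1, as did 5.19% of the genes tested (4.48% had the lower value in every pair), and the ranks overlapped only through rank 1 replicate 2. The log2 difference was 0.35 ± 0.20 SE and did not pass. These Cldn5 values are a description and not a test of rank. Cldn5, Cdh5 and Pecam1 help to define membership, so their levels are not independent of it, and genes of the membership rule are left out of all list counts here. Of the 9 other junction genes tested, 7 had a positive and 2 a negative log2 difference, with a median of 0.12 and 0 unadjusted p under 0.05. Ocln differed by 0.01 ± 0.29 SE, with 237 ± 94.1 CPM in rank 1 and 242 ± 147 CPM in rank 4.

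No transport gene passed between the ranks. Of 25 solute carriers tested, 20 had a positive and 5 a negative difference (median 0.10, 0 passing), led by the taurine carrier gene Slc6a6 (0.35 ± 0.19 SE, edgeR unadjusted p 0.0836, adjusted p 1.00). Slc2a1 differed by -0.05 ± 0.24 SE. Slc7a5, the large neutral amino acid carrier, had 718, 876, 1009, 366 and 281 CPM in rank 1 and 619, 826, 692, 223 and 224 CPM in rank 4. It was higher in rank 1 in each of the 5 pairs, while the ranks overlapped, and replicates 4 and 5 were low in both. Of 7 efflux transporters 3 had a positive and 4 a negative difference (median -0.09), with Abcb1a at 0.22 ± 0.17 SE and Abcg2 at 0.09 ± 0.26 SE. The 14 transcytosis genes tested had 10 positive and 4 negative differences (median 0.13), with the membrane coat gene Cavin1 at the smallest p (0.39 ± 0.19 SE, edgeR unadjusted p 0.060, adjusted p 1.00).

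No gene of the signalling lists passed between the ranks. VEGF and angiopoietin genes had 12 positive and 1 negative difference (median 0.15), with Kdr at 446, 359, 320.4, 736 and 495 CPM in rank 1 and 339, 302, 288, 435 and 384 CPM in rank 4. Kdr was higher in rank 1 in 5 of 5 pairs and the ranks overlapped (log2 difference 0.38 ± 0.18 SE, edgeR unadjusted p 0.0581, adjusted p 1.00). The 21 Wnt genes had 15 positive and 6 negative differences (median 0.11), with the Wnt deacylase gene Notum at 0.60 ± 0.29 SE and Ctnnb1 (beta-catenin) at 0.27 ± 0.22 SE. Notch genes had 8 and 1 (median 0.21), TGF-beta and BMP genes 11 and 2 (median 0.15), shear and vasoactive genes 7 and 2 (median 0.12), and basement membrane genes 8 and 4 (median 0.06). Over all genes tested the median was -0.01, with 3256 positive and 3546 negative.

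Stress and activity lists did not pass in the same fit. The 18 immediate early genes tested had 15 positive and 3 negative differences (median 0.17), with Egr4 at the smallest p (log2 difference -0.85 ± 0.33 SE, edgeR unadjusted p 0.0221, adjusted p 1.00). The 10 glucocorticoid-responsive genes had 3 positive and 7 negative (median -0.17), and the 12 heat shock genes 2 and 10 (median -0.09). Adhesion and inflammation genes had 9 and 2 (median 0.22), led by the TNF receptor gene Tnfrsf1a (0.85 ± 0.31 SE, edgeR unadjusted p 0.0172, adjusted p 1.00). Interferon and antigen presentation genes had 12 and 6 (median 0.09), and hypoxia and glycolysis genes 3 and 6 (median -0.08).

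No gene of the zonation lists passed between the ranks in the fit with the version covariate. The 10 venous genes tested had 9 positive and 1 negative difference with a median of 0.34, the 13 capillary genes 10 and 3 (median 0.15) and the 10 arterial genes 6 and 4 (median 0.09). Vwf (chromosome 6, 125546774 to 125686679, GRCm38) had 91.7, 210.0, 182, 96.1 and 157 CPM in rank 1 and 83.4, 75.5, 52.6, 102 and 85.2 CPM in rank 4. It was lower in rank 1 in the pair of replicate 4 only, and the ranks overlapped (log2 difference 0.87 ± 0.28 SE, edgeR unadjusted p 0.00818, adjusted p 1.00). Vwf passed in 4 of 33 alternatives, all with the replicate block (log2 difference 0.77 to 0.99, edgeR adjusted p 0.0104 to 0.0455). The vein marker Lrg1, with a UMI in 9 barcodes, passed without the filter on low counts (log2 difference 4.34, edgeR adjusted p 0.00750). Of these 9 barcodes, 5 were in rank 1 replicate 2, and the median over the 10 libraries was 0.906 CPM. Its call thus rests mostly on 1 library and on few UMIs. That fit called 6 genes, 2 higher and 4 lower in rank 1. Nr2f2 (COUP-TFII, a transcription factor of venous identity) had 48.6, 77.6, 43.3, 59.5 and 18.5 CPM in rank 1 and 24.1, 31.1, 32.6, 25.0 and 18.4 CPM in rank 4. Its log2 difference was 0.82 ± 0.33 SE (edgeR unadjusted p 0.0280, adjusted p 1.00), higher in 5 of 5 pairs. It rests on 7 to 27 UMIs per library and the pericyte set holds more of it, 202 CPM against 37.9.

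Markers of neurons and glia had differences of the opposite sign to most endothelial lists. All 8 neuron genes tested outside the rule, all 6 such astrocyte genes and all 6 microglia and macrophage genes had negative differences (medians -0.57, -0.61 and -0.25), and 4 of 5 oligodendrocyte genes did (median -0.59). The summed neuron list was higher in rank 1 in 1 of 5 pairs, and the astrocyte list also in 1 of 5. Among all genes tested, the 622 that were at least 4 times higher in the endothelial than in the other kept barcodes had a median log2 difference of 0.15, with 75.9% positive. The 291 that were at least 4 times higher in the other barcodes had a median of -0.44, with 7.90% positive. Both groups of genes were set from the same libraries and include genes of the membership rule. The part of this other RNA in the rank differences of the endothelial lists was not tested.

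**Figure D4:**
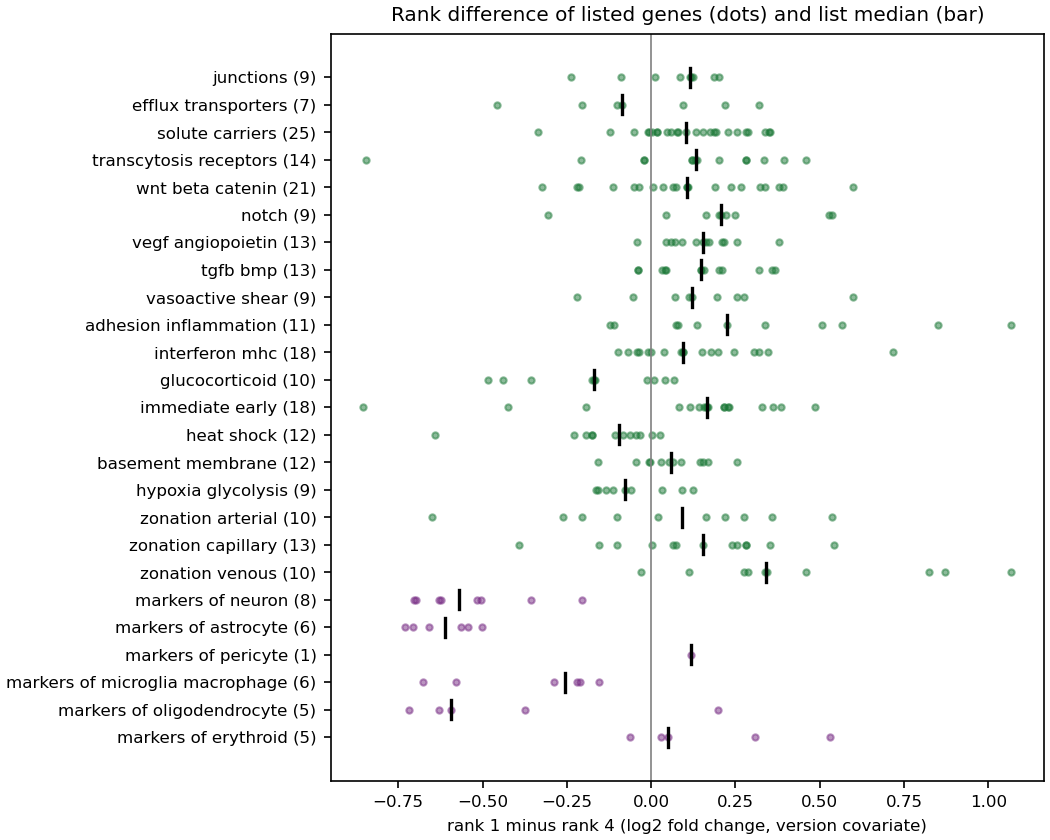
Log2 difference between rank 1 and rank 4 in the endothelial barcodes for each tested gene of a list (dots; green, endothelial and response lists; purple, markers of other cells), with the list median as a bar and the number tested in parentheses. Medians of the endothelial and response lists lie between -0.17 and 0.34, the last of these being the venous list, and the neuron, astrocyte, oligodendrocyte and microglia medians lie below 0. No gene passed adjustment.

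With the replicate number as a block in place of the version covariate, edgeR called 21 genes (0.309% of 6802), 19 lower (0.279%) and 2 higher (0.0294%) in rank 1. An unadjusted p under 0.05 was found for 691 genes (10.2%), 248 higher (3.65%) and 443 lower (6.51%). Of the 19 lower ones, 3 (Nrgn, Syt1 and Camk2n1) stood on the neuron list and 1 (Mt3) on the astrocyte list, out of 8 and 6 tested. The others were the chemokine genes Ccl4 and Ccl3, and Ndrg2, Ptprz1, Bcan, Cspg5, Cst3, Mapt, Syngr1, Kif5a, Kif1a, Gria3, Mt1, Hsph1 and mt-Nd4l. All 19 had lower CPM in the endothelial than in the other kept barcodes, as did 55.1% of all genes tested. Of these 21 genes, Bcan was among the genes of smallest p without the block, and Mt1, Hsph1, Mt3, Nrgn and Camk2n1 had the highest mean CPM or the smallest p of a list. The others were chosen after their values were seen. Vwf had an edgeR adjusted p of 0.0684 under the block.

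Nrgn (chromosome 9, 37544492 to 37552904, GRCm38) had 171, 35.5, 43.3, 242 and 465 CPM in rank 1 and 223, 48.9, 70.7, 562 and 844 CPM in rank 4. It was lower in rank 1 in 5 of 5 pairs, and replicates 2 and 3 were lowest in both ranks (blocked log2 difference -0.79 ± 0.15 SE, edgeR adjusted p 0.00880). Ndrg2 had 160.1, 48.5, 39.0, 18.3 and 86.8 CPM in rank 1 and 316, 62.2, 116, 79.7 and 135 CPM in rank 4, again lower in 5 of 5 pairs (-1.01 ± 0.18 SE, edgeR adjusted p 0.00880). Mt3, a metallothionein of astrocytes and neurons, had 626, 107, 95.2, 124 and 478 CPM in rank 1 and 746, 75.5, 189, 357 and 986 CPM in rank 4 (-0.75 ± 0.16 SE, edgeR adjusted p 0.0223). Its ranks overlapped and the pair of replicate 2 went the other way. In the other kept barcodes Nrgn, Ndrg2 and Mt3 had means of 500, 377 and 759 CPM in rank 1. The rank 4 means there were 681, 480 and 1141 CPM, with rank 1 higher in 1, 2 and 0 of 5 pairs.

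Ccl4 (chromosome 11, 83662584 to 83664683, GRCm38) varied widely between libraries, with 3.60, 77.6, 90.9, 41.2 and 31.4 CPM in rank 1 and 4.81, 204, 511, 36.4 and 49.5 CPM in rank 4. Rank 4 replicates 2 and 3 stood above all others, and the pair of replicate 4 went the other way (blocked log2 difference -1.47 ± 0.26 SE, edgeR adjusted p 0.00880). A Ccl4 UMI was present in 6.83% of endothelial, 6.10% of pericyte and 8.60% of the other kept barcodes, so its share in the endothelial barcodes was near that of a set that should lack it. Mt1, the metallothionein gene that also responds to glucocorticoids, had a blocked log2 difference of -0.51 ± 0.12 SE (edgeR adjusted p 0.0404). The heat shock gene Hsph1 had -0.65 ± 0.15 SE (edgeR adjusted p 0.0426). Both were lower in rank 1 in 5 of 5 pairs, and among the 10 glucocorticoid and 12 heat shock genes tested they were the only calls under the block. In the other kept barcodes Mt1 had means of 1059 CPM in rank 1 and 1541 CPM in rank 4, and Hsph1 226 and 247 CPM. There each was higher in rank 1 in 1 of 5 pairs.

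The 2 genes called higher under the block were Lmo2 and AY036118. Lmo2, a transcriptional cofactor of blood and endothelial development, had 484, 620.4, 710.0, 467 and 279 CPM in rank 1 and 255, 582, 449.5, 189 and 191 CPM in rank 4. It was higher in rank 1 in each of the 5 pairs, with overlap between the ranks (blocked log2 difference 0.66 ± 0.14 SE, edgeR adjusted p 0.0207). Its call held in 4 of 11 alternatives with the block, and of the 5 that leave out a pair in the one without pair 2 (edgeR adjusted p 0.00179 to 0.445 over the 11). Its level in the endothelial barcodes, 423 ± 186 CPM, was far above the 28.3 CPM of the other kept barcodes and the 25.6 CPM of the pericyte set. AY036118 is a transcript that overlaps ribosomal RNA like Gm42418. It had 209, 35.5, 17.3, 2328 and 2282 CPM in rank 1 and 44.9, 4.44, 7.25, 1831 and 1587 CPM in rank 4 (0.84 ± 0.18 SE, edgeR adjusted p 0.0230).

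These blocked calls depended on the tool and on the members. DESeq2 with the same block called 0 genes, edgeR called 0 when members had no UMI of the other-cell markers, and it called 0 without the pair of replicate 3. Without pairs 1, 2, 4 and 5 it called 9, 33, 12 and 14. With 3 library batches (replicate 1; 2 and 3; 4 and 5) as the covariate it called Ccl3, Ccl4 and Syngr1, all lower in rank 1 (edgeR adjusted p 0.0493 each).

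**Figure D5:**
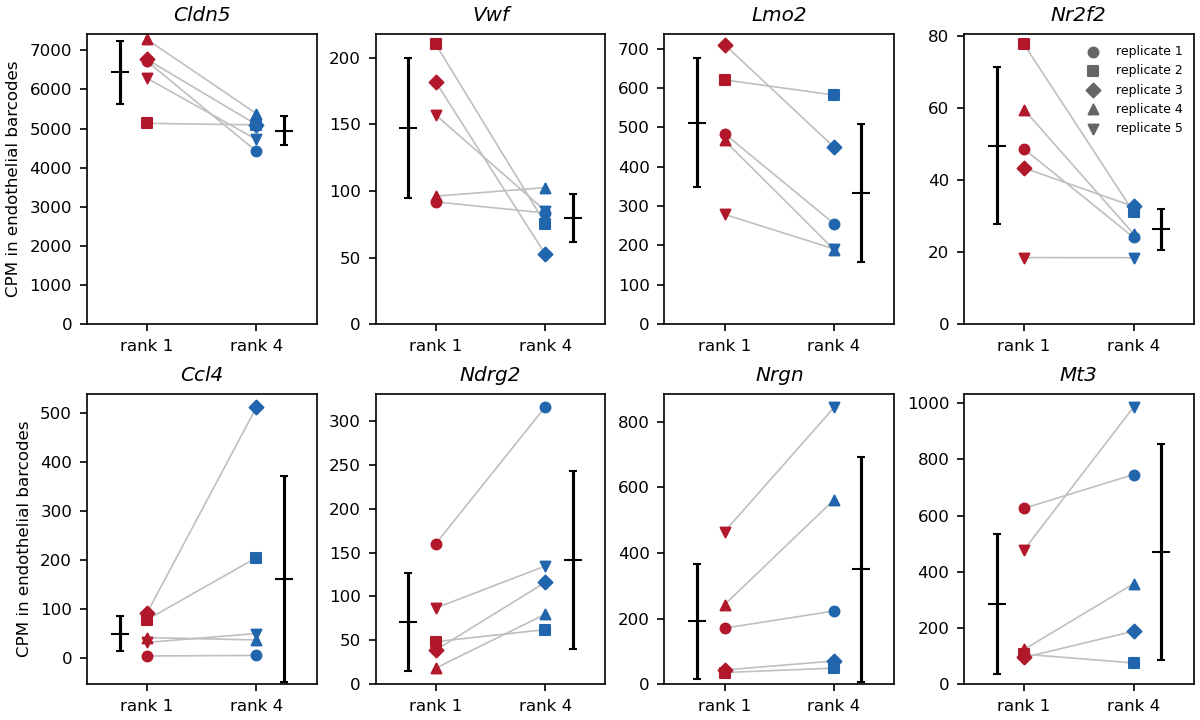
CPM in the endothelial barcodes of each library for 8 genes, with grey lines joining same-numbered libraries and black bars for the mean ± SD of a rank (n = 5). Cldn5, Lmo2 and Nr2f2 fall from rank 1 to rank 4 in each pair and Ndrg2 and Nrgn rise in each pair, while the spread between replicate numbers is larger than the step between ranks in most panels. Cldn5 is a gene of the membership rule, so its panel is a description.

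Whether a rank difference was particular to the endothelial barcodes was tested as an interaction, with the library as a block, against all other kept barcodes. Of 12907 genes tested, edgeR called 0 (0% called) after adjustment, and 375 (2.91%) had an unadjusted p under 0.05, 133 (1.03%) with a positive and 242 (1.87%) with a negative interaction. The 5 genes of smallest p, Adgrg6, Gm45159, Lhfpl3, Zfp9 and Fam120c, rested on 14 to 41 UMIs in the endothelial barcodes of all libraries (edgeR adjusted p 1 for each). Of the 19 genes lower under the replicate block, 3 had an unadjusted interaction p under 0.05.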

How the data were processed

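The deposited files hold raw UMI counts per gene and cell barcode, per the file headers, written by software version 3.1.0 for replicates 1 to 3 (31053 genes) and 4.0.0 for replicates 4 and 5 (32285 genes). The submitters' processing notes name Cell Ranger 4.0.0 and the genome build mm10. The 30406 gene IDs shared by both lists were used. Members and gene lists were chosen with earlier results of these data known.

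Counts were summed per library and set and tested with edgeR 4.0.16 (R 4.3.3) by quasi-likelihood with Benjamini-Hochberg adjustment at 0.05 and a filter on low counts. The covariate was the header version for rank and the library for the venous and interaction tests. DESeq2 1.42.0 was an alternative. Shares and depths were compared by exact permutation over libraries. Doublets were called with Scrublet in scanpy 1.11.5 (expected rate 0.06), kept, and left out in an alternative. Scrublet's own threshold failed in 2 libraries, replicate 1 of each rank, where the median threshold of the others, 0.247, was used. The fits were tested on simulated data.

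Named genes were, for rank, the 10 smallest p in each direction and, per list, the gene of highest mean CPM and of smallest p. For the interaction they were the 5 smallest p, for the venous comparison those past the threshold and zonation genes, and for description the most abundant and the 20 most enriched genes. Libraries of the same number deviated together (correlations 0.505 to 0.785 over 5 pairs, against -0.725 to 0.718 for different numbers), so a fit with the number as a block is given beside the one without. These correlations include the difference between software versions: within a version they ran from -0.313 (replicate 4) to 0.768, with 4 of 5 over 0.1, and replicates 2 and 3 were not told apart. The labels do not say what same-numbered libraries share. Nothing says that the pooled mice of a library were sampled independently of its partner, and p-values measure the spread between libraries. Alternatives under the replicate block, and the covariate of 3 library batches, were added after seeing the data.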

Additional observations from a re-analysis of the deposited data

Results flagged for a closer look

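In 78 groups of 5 libraries, 5 had a highest or lowest library whose gap to the next exceeded 0.71 of the range, where chance gives 3.9. In rank 4, replicate 1 had a median of 2365 UMIs per endothelial barcode, against 946 to 1272 in the other 4. The same library had 209 CPM summed over the pericyte list, against 48.9 to 72.9 CPM, 316 CPM of Ndrg2, against 62.2 to 135 CPM, and 96.3 CPM of Hsph1, against 223 to 266 CPM. In rank 1, replicate 5 had 5.31% of its endothelial barcodes called as doublets, against 1.61% to 2.27%.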

How the results depend on the processing

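The rank difference in endothelial share was 0.177 percentage points with a marker sum of at least 10, 0.168 with no other-cell UMI, 1.12 with the stricter cell filter, and -0.848 to 0.573 with 1 library left out. The difference in UMIs per barcode ran from -23.5 to 331 with 1 library left out, and was highest without rank 4 replicate 1. The difference in venous-marked share was 8.56 within replicates 1 to 3, -3.34 within replicates 4 and 5, and ran from -0.177 (without rank 1 replicate 3) to 6.49. With the replicate block, paired exact permutation gave p = 0.5 for the endothelial and p = 0.313 for the venous-marked share. Genes called between ranks numbered 3 with 3 library batches, 6 without the filter on low counts and 21 with the replicate block. With the block they numbered 21 at a marker sum of at least 10, 61 without the filter, 7 with the stricter cell filter, 21 without doublets, and 9, 33, 12 and 14 without pairs 1, 2, 4 and 5. The venous comparison called 4 genes with at least 2 UMIs of the splitting gene (3 libraries), 5 at a marker sum of at least 10, 24 without the filter, 0 without the library block, 2 with no other-cell UMI (9 libraries), 4 with the stricter cell filter (6 libraries), 3 after thinning (9 libraries), and 3 to 10 with 1 library left out. The cause of these changes was not tested. The interaction called 0 genes in its 13 alternatives. Depth limits genes of few UMIs per library and the zonation marks, which 1545 of 2943 barcodes lack.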
